A study of Mus musculus with 3 samples.

Results

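Regions of open chromatin that lie inside protein-coding genes, away from their ends, and that were called in divided CBir1, undivided CBir1 and polyclonal CD4+ T cells alike are described here. Open chromatin was mapped by ATAC-seq, in which a transposase cuts accessible DNA and tags it for sequencing. Peaks of the 3 libraries on chromosomes 1 to 19 that shared at least 1 bp were merged into 55946 regions. A merged region was kept if it held a peak of all 3 libraries, overlapped the span of a RefSeq protein-coding gene (mm10) and did not touch the 1 kb on either side of the first or last base of any gene. This left 11394 gene-interior regions, which are 20.4% of all merged regions and 35.7% of the 31886 regions called in all 3 libraries (Wilson 95% interval 35.2 to 36.3). The other shared regions were 12853 near gene ends and 7639 between genes. The regions were chosen by the authors' peak calls in each library and by position, so their being open in all 3 fractions is not a result.

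CBir1 cells carry a transgenic T cell receptor for a flagellin of gut bacteria. Naive CBir1 CD4+ cells, labelled with CellTrace Violet, a dye diluted by division, were injected into 4 wild-type C57BL/6J mice. The divided fraction was the CBir1 cells with dim dye, the undivided fraction the CBir1 cells that kept the dye, and the polyclonal fraction the recipients' own CD4+ cells that were not CBir1. All 3 came from the same colon-draining mesenteric lymph nodes, on day 14 after the start of 2% dextran sulfate sodium (DSS, 7 days in drinking water, which damages the gut barrier). All recipients also had FTY720 (1 mg/kg, days 7, 10 and 13), which stops lymphocytes from leaving the nodes. No library came from untreated mice, so nothing here separates an effect of DSS or FTY720. The polyclonal fraction is a mixture of cell states, and each fraction is 1 library pooled from mice, so no difference can be set against replicate spread and p-values are not given.

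Open chromatin away from gene ends is where enhancers lie, and introns hold many of the enhancers that control lymphocyte genes. Alternative promoters also lie inside genes, and an open promoter is often rich in CpG and in binding sites of SP and KLF factors. A region inside a gene need not act on that gene. Exons and introns could not be told apart here.

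A small share of the gene-interior regions sat on or beside an annotated transcription start inside the gene. RefSeq lists 3377 starts more than 1 kb from any gene end, and 1011 of them (29.9%), in 820 genes, had a window that overlapped a gene-interior region open in all 3 fractions. The window is the 300 bp that RefSeq gives around a start (250 bases before it and 50 after). For 973 of the 1011 (96.2%) the start itself lay in the region, and for 38 it lay just beside it. A further 120 windows overlapped a region called in 1 or 2 libraries only, 264 a shared region that reached a gene end, and 1982 no region of any library. Windows on gene-interior regions had a median of 19 CpG and a GC content of 60.7%. The 1982 windows with no region had a median of 5 CpG and a GC content of 50.3%. The SP/KLF letters GGGCGG, on either strand, were in 61.6% of the open windows, in 20.1% of the windows with no region and in 36.0% of all 31396 promoter windows. The ETS letters CGGAAGT were in 9.99%, 1.56% and 6.50% of the same sets. The TATA letters TATAAA were in 5.54%, 15.6% and 13.6%. The letters of RUNX factors, TGTGGTT, and those of GATA factors, AGATAA, were in 2.87% and 5.93% of the open windows, against 6.61% and 14.2% of those with no region. Open starts were thus richer in CpG and in SP/KLF and ETS letters, and poorer in TATA, RUNX and GATA letters, than closed ones. GC content alone changes how often such letters occur, and its part was not tested.

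The stretches below are the 150 bases before such a start, 5′ to 3′ on the strand of the gene, from RefSeq (GRCm38.p6, the assembly of mm10). They show the tallest such region (Rfx1), those with the highest and lowest divided-over-undivided ratio (Rasgef1a and Tspan9), and T cell genes named in the text. Capitals mark matches to AP-1 (TGANTCA), RUNX, ETS, GATA, TCF/LEF (TTCAAAG), IRF, T-box (AGGTGTGA), SP/KLF and TATA letters on either strand.
Rfx1: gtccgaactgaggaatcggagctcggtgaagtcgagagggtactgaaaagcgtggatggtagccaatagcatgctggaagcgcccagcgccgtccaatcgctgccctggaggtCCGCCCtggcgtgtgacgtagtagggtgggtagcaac
Rasgef1a: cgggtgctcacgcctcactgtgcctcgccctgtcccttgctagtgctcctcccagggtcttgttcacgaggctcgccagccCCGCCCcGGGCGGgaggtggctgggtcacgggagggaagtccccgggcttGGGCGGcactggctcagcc
Tspan9: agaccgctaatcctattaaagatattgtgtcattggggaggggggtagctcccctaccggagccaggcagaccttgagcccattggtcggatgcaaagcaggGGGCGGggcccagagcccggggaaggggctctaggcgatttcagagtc
Hdac4: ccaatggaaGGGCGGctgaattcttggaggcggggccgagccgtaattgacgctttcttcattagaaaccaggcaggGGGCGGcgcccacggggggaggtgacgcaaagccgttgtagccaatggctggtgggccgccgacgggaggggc
Lef1: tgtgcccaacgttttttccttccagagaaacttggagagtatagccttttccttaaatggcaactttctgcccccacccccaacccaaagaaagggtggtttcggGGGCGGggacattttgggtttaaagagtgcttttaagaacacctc
Nr4a1: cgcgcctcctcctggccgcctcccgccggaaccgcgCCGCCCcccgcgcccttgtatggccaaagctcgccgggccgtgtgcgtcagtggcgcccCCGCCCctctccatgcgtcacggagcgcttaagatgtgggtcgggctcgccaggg
Runx1: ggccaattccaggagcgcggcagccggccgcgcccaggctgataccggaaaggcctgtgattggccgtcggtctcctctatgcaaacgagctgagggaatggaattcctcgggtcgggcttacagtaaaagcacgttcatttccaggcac
Satb1: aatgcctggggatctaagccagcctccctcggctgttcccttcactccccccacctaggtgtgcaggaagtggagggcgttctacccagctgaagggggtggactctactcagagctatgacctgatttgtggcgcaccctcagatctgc
For contrast, these stretches precede internal starts of Il1r1 and Ptgdr2 whose windows overlapped no region of any library. They are the starts of T cell list genes whose CpG count over the 300 bp window was nearest the median of such starts.
Il1r1: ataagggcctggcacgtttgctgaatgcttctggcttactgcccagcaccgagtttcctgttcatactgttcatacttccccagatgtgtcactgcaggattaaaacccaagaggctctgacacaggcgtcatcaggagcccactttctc
Ptgdr2: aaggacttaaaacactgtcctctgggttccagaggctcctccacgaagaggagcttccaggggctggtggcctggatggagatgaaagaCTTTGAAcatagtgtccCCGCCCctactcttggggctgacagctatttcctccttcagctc
In the 150 printed bases, the open stretches of Hdac4, Nr4a1 and Rfx1 held 13, 21 and 12 CpG, and those of Lef1 and Satb1 3 each. The medians above are per 300 bp window, so these counts are not to be set against them. The closed stretches held 3 (Il1r1) and 2 (Ptgdr2), and their 300 bp windows 5 each. In the printed bases, CpG count thus overlapped between open and closed starts among these examples. No match says only that those letters are not in the stretch.

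Height is given as the summit pileup, the number of fragments stacked at the summit of the peak, recovered from the deposited fold and −log10 p-value. The Rfx1 start on chromosome 8 (84066836, + strand) lay in chr8:84066391-84067497, which had 361 fragments in divided cells, 325 in undivided cells and 318 in polyclonal cells. Rfx1 encodes an RFX transcription factor. The internal start of Hdac4, a class II histone deacetylase, lay in chr1:92179814-92181040 with 276, 262 and 289 fragments in divided, undivided and polyclonal cells. These were level across the fractions. At the Rasgef1a start (chr6:118065893-118067174) the pileup was 73 in divided cells, 18 in undivided cells and 34 in polyclonal cells. At the Tspan9 start (chr6:128034258-128036260) it was 12, 38 and 37. At the internal start of Runx1, which encodes a T cell and blood lineage factor, it was 100, 58 and 51 (chr16:92696738-92699016). At that of Satb1, a chromatin organiser of thymocytes and naive T cells, it was 52, 65 and 63 (chr17:51826267-51826932). Among the internal starts of T cell list genes, the divided-over-undivided log2 ratio was highest at Runx1 (0.52) and lowest at Satb1 (−0.59).

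On the chromosomes the promoter table covers, 859 of 11064 gene-interior regions (7.76%) overlapped the window of an internal start, and 837 held the start itself. Their median pileups were 88, 70 and 73 fragments in divided, undivided and polyclonal cells, and their median width 1028 bp. The other 10205 had medians of 36, 29 and 29 fragments and 659 bp. Regions at a start were thus taller and wider, and 44.7% of them averaged 80 fragments or more, against 11.7% of the others.

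Gene-interior regions were lower and narrower than shared regions at gene ends and close to those between genes. Their median pileup was 38 in divided cells (quartiles 21 to 70), 31 in undivided cells (17 to 57) and 31 in polyclonal cells (18 to 56). Near gene ends the medians were 85, 67 and 71, and between genes 33, 28 and 27. Median widths were 677 bp inside genes, 1005 bp near gene ends and 651 bp between genes. The shares of regions called in all 3 libraries also differed by position. Of the 23448 regions inside genes in any library, 48.6% were called in all 3 (48.0 to 49.2), against 78.1% of regions near gene ends (77.5 to 78.7) and 47.6% between genes (46.8 to 48.4). Lower regions miss the calling threshold more easily, and the part of height in these shares was not tested.

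**Figure D1:**
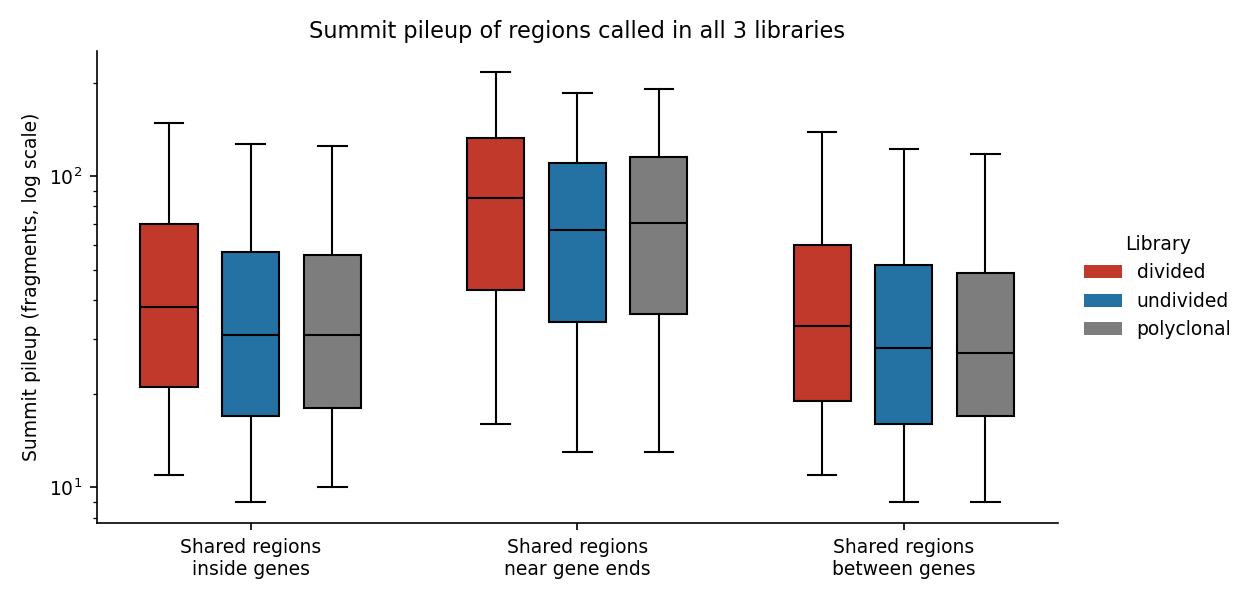
Summit pileup (fragments, log scale) of regions called in all 3 libraries, by position and library; boxes give the quartiles and median, whiskers the 5th and 95th percentiles. Gene-interior regions have medians of 38, 31 and 31 fragments, below the 85, 67 and 71 near gene ends.

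To compare fractions, pileups were scaled so that the median ratio over all 31886 shared regions was 1. The unscaled median ratios were 1.206 for divided over undivided, 1.189 for divided over polyclonal and 0.9873 for undivided over polyclonal. The lowest local background in each list, which follows depth, gave 1.496, 1.396 and 0.9332 instead. Scaling by it would subtract 0.311 from every divided-over-undivided log2 ratio given here, 0.232 from every divided-over-polyclonal one and −0.0814 from every undivided-over-polyclonal one. Log2 medians between 0 and these shifts therefore change sign with the scaling.

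Most gene-interior regions had similar heights in divided and undivided cells. The median log2 ratio was 0.00382 and the SD over regions 0.61. Against undivided cells, 625 regions (5.49%) were at least 2-fold higher in divided cells, where 4.18% of all shared regions were, and 515 (4.52%) were at least 2-fold lower, where 3.57% of all shared regions were. Higher regions were thus 54.8% of those past 2-fold, but 21.9% with background scaling, so which direction was the more common depended on the scaling. Against polyclonal cells, 390 regions (3.42%) were 2-fold higher in divided cells, where 2.47% of all shared regions were, and 348 (3.05%) lower, where 2.33% were. The higher share was 52.8%, and 19.5% with background scaling, 41.8% past 3-fold and 63.7% where the higher library had 30 fragments or more. Undivided and polyclonal cells were the closest pair. There 181 regions (1.59%) were higher in undivided cells, where 1.21% of all shared regions were, and 241 (2.12%) lower, where 1.64% were. The higher share was 42.9%, and 55.8% with background scaling and 30.2% past 3-fold. The comparisons share libraries and are not independent of each other.

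Between divided and undivided cells, 10.0% of gene-interior regions, 3.52% of shared regions near gene ends and 11.5% of those between genes were past 2-fold. Low counts scatter more, so the shares were also taken at matched mean height. Below 20 fragments they were 14.8%, 12.4% and 14.3% in the same order. Between 20 and 40 fragments they were 12.6%, 8.57% and 14.7%, between 40 and 80 they were 5.79%, 2.05% and 7.24%, and from 80 upwards 1.47%, 0.182% and 2.04%. Above 20 fragments, the gene-interior share in this comparison lay above that near gene ends and below that between genes at each height. Between 20 and 40 fragments the other comparisons differed. There it was 8.51% inside and 8.25% between genes for divided over polyclonal, and 4.39% and 3.65% for undivided over polyclonal. Above 40 fragments the gene-interior share was again below that between genes in both. These are counts in single libraries, and the differences between classes were not tested.

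**Figure D2:**
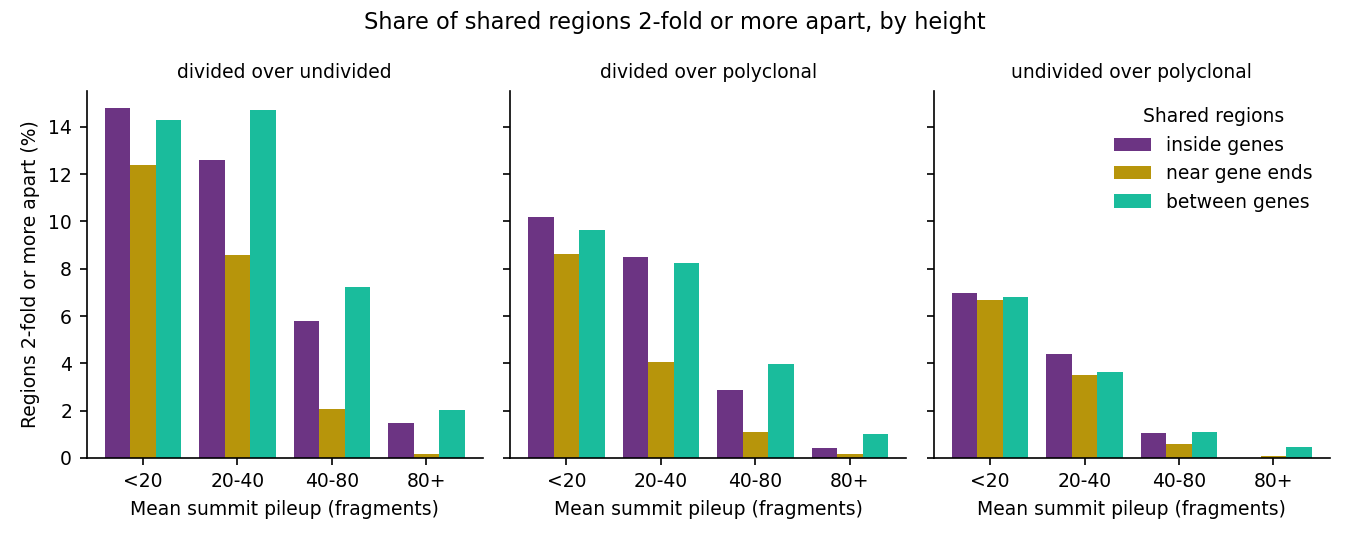
Percent of shared regions 2-fold or more apart between 2 libraries (y) by mean summit pileup over the 3 libraries (x, fragments), for regions inside genes, near gene ends and between genes. In divided over undivided, the gene-interior share is 14.8% below 20 fragments and 1.47% from 80 upwards, where it is 0.182% near gene ends.

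The 625 regions higher in divided than undivided cells had median pileups of 41 in divided cells, 12 in undivided cells and 20 in polyclonal cells. The 515 lower ones had 14, 31 and 24. Polyclonal cells thus lay between the CBir1 fractions in both sets. These values chose the sets and carry no test. A lower library still had to reach a called peak, with at least 6 fragments in divided and 5 in undivided and polyclonal cells, which bounds how far any ratio can go.

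The region highest in divided over undivided cells lay in Slc6a19 (chr13:73685421-73686091), which encodes a neutral amino acid transporter best known from gut and kidney. It had 125 fragments in divided cells, 10 in undivided cells and 21 in polyclonal cells, a scaled ratio of 10.4 over undivided (log2 3.37, exact binomial 95% interval 2.45 to 4.47, counting error only). Stx6, a vesicle fusion protein, had 168, 15 and 42 (log2 3.22, 2.45 to 4.08). Among the 8 highest were also N4bp1, Gnptab, Farsb, Senp1 and Ppp2r5a, with 74 to 139 fragments in divided cells and 7 to 13 in undivided cells. In all 8 the polyclonal pileup, 21 to 50, lay between the CBir1 fractions.

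The lowest ratio was in Ulk4, which encodes a pseudokinase (chr9:121010075-121011178), with 7 fragments in divided cells, 42 in undivided cells and 35 in polyclonal cells (log2 −2.86, −4.25 to −1.69). Arhgap5, a GTPase-activating protein, had 8, 44 and 16 (log2 −2.73, −4.03 to −1.63). Dock9, an activator of Cdc42, held 2 of the 8 lowest regions. The lower of them had 13, 63 and 58 fragments (chr14:121553505-121554310, log2 −2.55, −3.53 to −1.67). Syne1, a nuclear envelope protein, had 17, 78 and 62. Iqgap1, Cnn3 and Tspan9 completed the 8. Here too the polyclonal pileup lay between the others, and in Ulk4, Dock9, Syne1, Iqgap1 and Tspan9 it was nearer the undivided one.

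**Figure D3:**
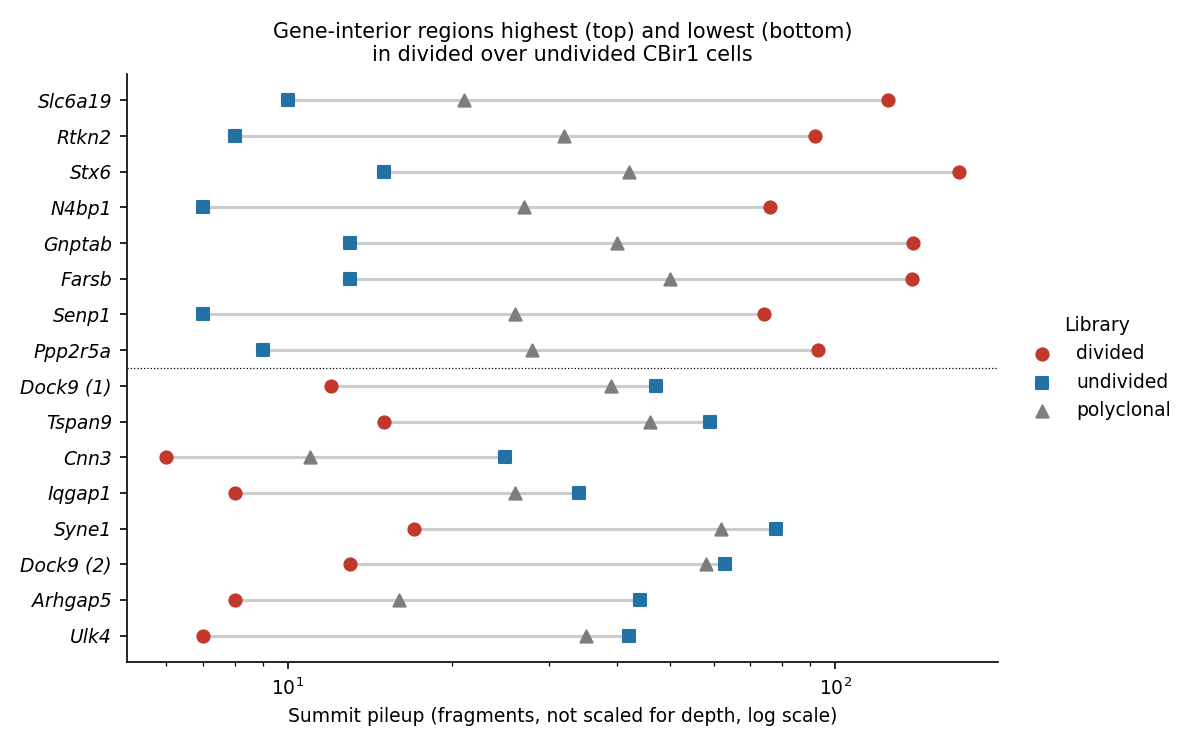
Summit pileup (fragments, not scaled for depth, log scale) in the 3 libraries for the 8 gene-interior regions highest (above the dotted line) and the 8 lowest in divided over undivided cells, named by gene. Slc6a19 has 125, 10 and 21 fragments in divided, undivided and polyclonal cells, Ulk4 7, 42 and 35; the polyclonal point lies between the others in every row.

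Against polyclonal cells, the region highest in divided cells was in Nckap5 (chr1:126817499-126818319), with 69 fragments in divided cells, 14 in undivided cells and 11 in polyclonal cells (divided over polyclonal log2 2.40, 1.47 to 3.47). Slc6a19 was second (log2 2.32, 1.65 to 3.07). Ulk4 and Dock9 were again lowest. The lowest list also held the tallest of these regions, in Acap2, an Arf6 GTPase-activating protein (chr16:31181799-31182175). It had 108 fragments in divided cells, 374 in undivided cells and 412 in polyclonal cells (divided over polyclonal log2 −2.18, −2.50 to −1.87; divided over undivided −2.06, −2.38 to −1.75). The region in Kmt2c, a histone H3 lysine 4 methyltransferase, had 8, 20 and 29 fragments (divided over polyclonal log2 −2.11).

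Between undivided and polyclonal cells, the highest ratios were in Cntn1 (24 fragments in divided cells, 30 in undivided cells and 8 in polyclonal cells, log2 1.93, 0.77 to 3.26) and Dusp22, a phosphatase known to restrain the kinase Lck (50, 52 and 14, log2 1.91, 1.04 to 2.88). At Dusp22 both CBir1 fractions were alike and above polyclonal cells. The lowest were in Ankrd6 (59, 6 and 31, log2 −2.35, −3.90 to −1.07) and Gpr107 (67, 7 and 36, log2 −2.34, −3.76 to −1.16). Plcg1, the phospholipase downstream of the T cell receptor, had 36 fragments in divided cells, 7 in undivided cells and 32 in polyclonal cells at chr2:160763423-160764240 (undivided over polyclonal log2 −2.17, −3.60 to −0.97). At Plcg1 the undivided library alone was low, while divided and polyclonal cells were close.

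The 5 tallest gene-interior regions differed by less than 2-fold between fractions. Their scaled divided-over-undivided log2 ratios ran from −0.33 (−0.43 to −0.23) to −0.13 (−0.25 to −0.01), slightly lower in divided cells. The first lay in Myo3a, a class III myosin (chr2:22587575-22588129), with 1589 fragments in divided cells, 1656 in undivided cells and 1596 in polyclonal cells. Its local background was 253, 259 and 246 fragments, far above the library minima of 1.21, 0.808 and 0.865. Another Myo3a region had 1171, 1172 and 1141 fragments. Chl1, a neural adhesion molecule, had 1268, 1151 and 1105 in a region 251 bp wide (chr6:103649047-103649297), over a background of 28.8, 25.4 and 24.4. A region in Mpp7 had 851, 829 and 772 fragments, and one in Gm40363 had 779, 804 and 665. Across all gene-interior regions, 14 in 5 genes had a local background over 50 fragments in a library. What gives these places their high background was not tested.

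Gene-interior regions were spread over 5141 of 20661 protein-coding genes (24.9%). Of these genes 2892 held 1 region, 540 held 5 or more and 130 held 10 or more. Genes with a region had a median span of 46.8 kb and those without 11.8 kb. Spearman's rho between span and count was 0.455 over all genes, as a description, since a long gene has more room. In genes of 10 to 30 kb there were 1.70 regions per 100 kb, and in genes over 300 kb 0.390.

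Foxp1, a forkhead repressor that keeps naive T cells quiescent, held 43 regions in its 597 kb, more than any other gene (chr6:98925342-99522746). Their median pileups were 48 in divided cells, 38 in undivided cells and 37 in polyclonal cells. The tallest, chr6:99309183-99310127, had 165, 121 and 133 fragments. Of the 43, 5 were 2-fold higher in divided than undivided cells and none was 2-fold lower, where 5.49% and 4.52% of all gene-interior regions were. The most divergent had 79, 23 and 40 fragments (chr6:98992737-98993493, log2 1.51, 0.82 to 2.25). The median over the 43 was −0.07, so most of Foxp1 was level while a few regions were higher in divided cells.

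Next came Wwox, an oxidoreductase gene spanning a fragile site, with 23, Inpp4b, a phosphoinositide phosphatase, with 21, and Akap13, Arid1b, Bach2 and Prkch with 20 each. Bach2, a repressor of effector differentiation in T cells, had median pileups of 54.5 in divided cells, 43.0 in undivided cells and 41.5 in polyclonal cells. In Bach2 no region was 2-fold higher in divided than undivided cells and 2 were lower, the taller of them with 14, 37 and 18 fragments (chr4:32307038-32307582, log2 −1.67, −2.67 to −0.75). Prkch, a protein kinase C isoform, had the opposite pattern, with 2 regions higher and none lower. Wwox had both, with 4 higher and 2 lower. Akap13, a kinase-anchoring protein, had none past 2-fold, with ratios from −0.80 to 0.47. Arid1b, a subunit of the BAF remodeller, had 1 higher and none lower. Prkce and Sgms1 (19 each) and Cmss1 (18) completed the 10 genes with most regions.

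**Figure D4:**
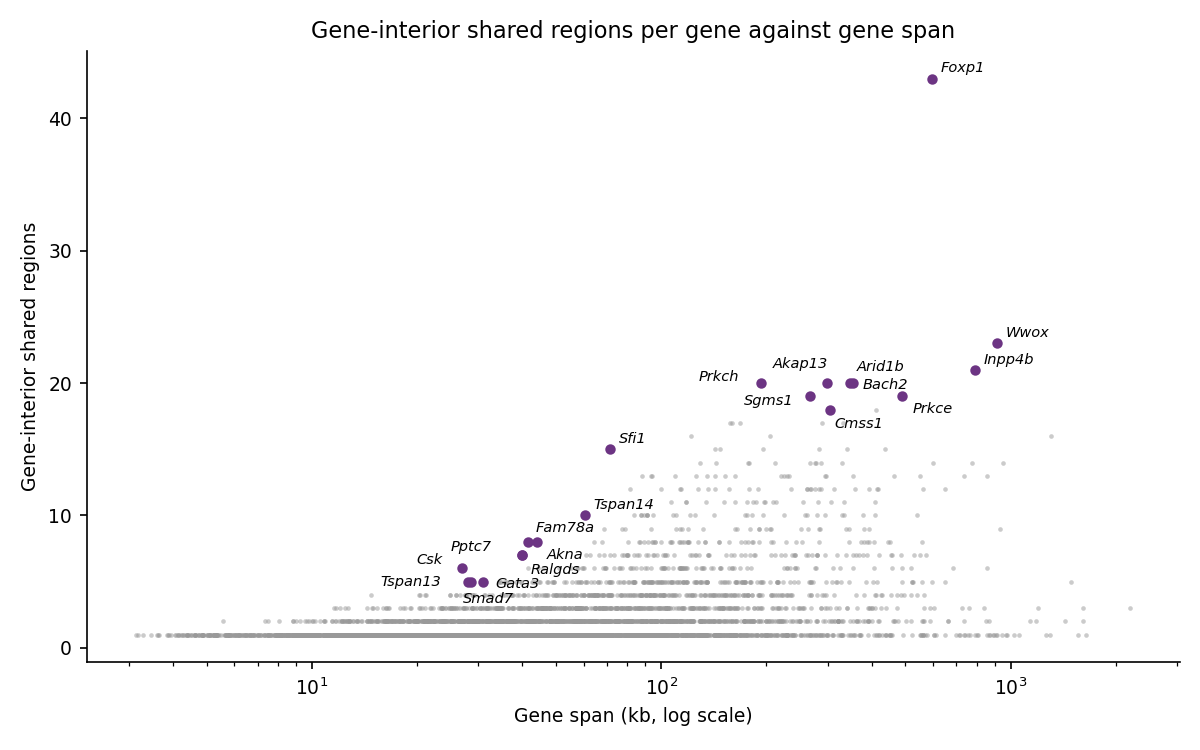
Number of gene-interior shared regions (y) against gene span (x, kb, log scale), each point 1 of the 5141 genes with a region. Foxp1 holds 43 regions; purple points are the 10 genes with most regions and the 10 with the highest density among genes with 5 or more.

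By density, among genes with 5 or more regions, Csk led with 6 regions in 27.0 kb, or 22.2 per 100 kb, where all protein-coding genes together had 1.15. Csk encodes the kinase that holds Lck and Fyn inactive. Its regions had median pileups of 101 in divided cells, 93.5 in undivided cells and 87.0 in polyclonal cells, and none was past 2-fold. Sfi1, a centrosome gene, had 15 regions (21.0 per 100 kb) with medians of 214, 123 and 145, over a median local background of 50.6, 32.4 and 35.1 fragments. This background was far above the library minima, and its part in the Sfi1 heights was not tested. Fam78a, Akna, Tspan13, Pptc7, Ralgds, Smad7, Tspan14 and Gata3 followed, at 16.2 to 19.3 per 100 kb. Gata3, the factor of Th2 and early T cells, held 5 regions with 73 to 191 fragments in divided, 53 to 146 in undivided and 41 to 157 in polyclonal cells. Its divided-over-undivided log2 ratios lay between −0.15 and 0.33. Smad7, an inhibitor of TGF-β signalling, had 5 regions with ratios from −0.32 to 0.06. Tspan14, a tetraspanin, stood apart in that 2 of its 10 regions were 2-fold higher in divided cells.

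Neighbouring regions often formed runs. Taking runs of at least 3 regions no more than 12500 bp apart within a gene, 786 runs in 685 genes held 27.7% of the regions, counted per gene. The longest were Sfi1 with 15 regions, Bcl11b with 13 over 75.7 kb, Mbnl1 with 13 over 63.3 kb, Ankrd44 with 12 over 85.0 kb and Ikzf1 with 12 over 61.5 kb. Bcl11b and Ikzf1 encode zinc finger factors of T cell commitment and lymphocyte development. The pileups of the Bcl11b run summed to 929 in divided cells, 776 in undivided cells and 823 in polyclonal cells, with a median divided-over-undivided log2 ratio of 0.03. In the Ikzf1 run they summed to 952, 865 and 797, with a median of −0.06. Both runs were therefore level between divided and undivided cells. A run in Mtss1, a membrane-bending protein, leaned to undivided cells, with 10 regions summing to 283, 308 and 298 and a median of −0.49.

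Many T cell genes held gene-interior regions. In 14 lists of T cell genes, 138 of 237 genes (58.2%) held 636 regions, where 24.9% of all protein-coding genes held one and all together had 1.15 regions per 100 kb. Of the 24 genes of T cell identity and receptor signalling 19 held 94 regions, or 6.26 per 100 kb, and of 27 lineage regulators 23 held 208, or 5.63 per 100 kb. Cell cycle genes held 18 regions in 4 of 17 genes (23.5%) and Th2 genes 8 in 3 of 12, which is near the share of all genes. Per 100 kb they held 3.65 and 3.23 regions, above the 1.15 of all genes. The lists were chosen with earlier results of these data known. Of the 636 regions, 46 (7.23%) were 2-fold higher in divided than undivided cells and 16 (2.52%) lower, where 5.49% and 4.52% of all gene-interior regions were. In divided over polyclonal cells 22 (3.46%) were higher and 12 (1.89%) lower, where 3.42% and 3.05% of all gene-interior regions were, so the higher share was that of all regions. The counts of single lists that follow are to be read against the same shares of all gene-interior regions, and lists differ in size. The regions named in the next paragraphs are those past 2-fold, chosen after their values were seen. Past 2-fold is by pileup, and by the deposited fold over local background some of them differed little or not at all.

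Among receptors and inhibitory genes, the only region of Ctla4, the inhibitory receptor that competes with CD28, had 146 fragments in divided cells, 19 in undivided cells and 59 in polyclonal cells (chr1:60913294-60913977). It was 6.37-fold higher in divided than undivided cells (log2 2.67, 1.98 to 3.44) and 2.08-fold higher than in polyclonal cells (log2 1.06, 0.61 to 1.52). Its deposited folds were 5.40 in divided and 2.97 in undivided cells, over local backgrounds of 26.2 and 5.73 fragments. A region of Ikzf2, which encodes Helios, a factor of regulatory T cells, had 121, 15 and 45 (chr1:69544116-69544678, log2 2.74, 1.96 to 3.62, over undivided). Another Ikzf2 region went the other way, with 16, 31 and 24 (log2 −1.22, −2.19 to −0.31). Regions within 1 gene thus differed in direction. All 3 regions of Il2rb, the β chain of the IL-2 and IL-15 receptors, were higher in divided cells. They had 103, 134 and 31 fragments in divided cells, 33, 50 and 6 in undivided cells and 64, 97 and 14 in polyclonal cells, and scaled ratios over undivided of 2.59, 2.22 and 4.28. Over polyclonal cells these were 1.35, 1.16 and 1.86, none past 2-fold. The deposited folds over local background were 6.51, 8.41 and 11.4 for the divided library, against 6.02, 9.03 and 3.87 for the undivided one. By that measure the second Il2rb region was not higher. A region of Havcr2, which encodes TIM-3, had 25, 7 and 7 (log2 1.57, 0.32 to 3.02). Nt5e, an ectonucleotidase, had 139, 53 and 105 (over undivided, log2 interval 0.65 to 1.61), Dgkz, which ends diacylglycerol signalling, 137, 46 and 84 (2.47-fold), and Cblb, a ubiquitin ligase of anergy, 103, 42 and 59 (2.03-fold). Their deposited folds, divided then undivided, were 7.07 and 6.45 (Nt5e), 6.59 and 4.53 (Dgkz), and 9.73 and 9.32 (Cblb). Of the 27 regions on the inhibitory receptor and anergy list 5 (18.5%) were higher than in undivided cells, where 5.49% of all gene-interior regions were, and none lower. On the cytokine receptor and STAT list 6 of 78 (7.69%) were higher and 1 lower, and on the Treg list 2 of 26 were higher and 2 lower.

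In receptor signalling, Fyn, a Src-family kinase, held 15 regions, of which 3 were 2-fold higher in divided than undivided cells and none lower. The most divergent had 112 fragments in divided cells, 20 in undivided cells and 28 in polyclonal cells (chr10:39478965-39479969, log2 2.22, 1.52 to 2.98). Its deposited folds were 9.57 in divided and 7.26 in undivided cells. At the other higher Fyn regions they were 6.35 and 4.93 in divided cells, below the 6.62 and 7.52 in undivided cells. In the same gene the median ratio was 0.20, so the larger differences lay in a few regions. Cd247, the CD3 ζ chain, had 1 of 10 regions past 2-fold (68, 22 and 39, log2 1.36), with deposited folds of 5.21 in divided and 4.90 in undivided cells. Ptprc, which encodes CD45, had a region with 53, 18 and 31 (log2 1.29). Prkcq, protein kinase C θ, had 14 regions and 1 past 2-fold, which was lower in divided cells (34, 63 and 65, log2 −1.16, −1.81 to −0.54). Over the list 6 of 94 regions (6.38%) were higher and 2 (2.13%) lower, where 5.49% and 4.52% of all gene-interior regions were.

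Among lineage regulators, Ets1, an ETS factor of lymphocytes, held 16 regions with median pileups of 78.5 in divided cells, 46.0 in undivided cells and 43.0 in polyclonal cells. Its tallest region was level, at 185, 171 and 178. In contrast, chr9:32652035-32652700 had 77, 15 and 30 fragments (log2 2.09, 1.28 to 2.99) and chr9:32661059-32662057 had 69, 12 and 22 (log2 2.25, 1.36 to 3.27). Near the other end of Ets1, chr9:32745009-32745620 had 116, 41 and 42 (log2 1.23 over undivided, 1.22 over polyclonal). In all 4 Ets1 regions were higher and none lower. Tox, a factor of exhausted and helper T cells, had a region on each side, with 23, 7 and 13 (log2 1.45) and with 10, 30 and 20 (log2 −1.86). Over the list 14 of 208 regions (6.73%) were higher and 7 (3.37%) lower, with a median log2 ratio of −0.01.

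On the list of naive and quiescent cells, regions past 2-fold were about as frequent as among all gene-interior regions. Its 101 regions, 43 of them in Foxp1, had a median divided-over-undivided log2 ratio of −0.11, with 5 (4.95%) higher, all in Foxp1, and 4 (3.96%) lower, where 5.49% and 4.52% of all gene-interior regions were. The lower ones were the 2 in Bach2, 1 in Foxo1 (24 fragments in divided cells, 48 in undivided cells and 44 in polyclonal cells, log2 −1.27) and 1 in Satb1 (22, 47 and 24, log2 −1.37). Foxo1 drives naive T cell homing and survival genes. Lef1, a TCF-family factor, was level over its 12 regions, with ratios from −0.60 to 0.08. On the migration list, Itga4, the α4 integrin, had a region with 17, 40 and 32 (log2 −1.50, −2.42 to −0.65). Nrp1, a receptor on thymic regulatory T cells, had 1 of 5 regions past 2-fold, with 18, 49 and 33 (log2 −1.72, −2.58 to −0.91). Stat4, which carries IL-12 signals, had 1 of 8 regions at the threshold, with 50, 83 and 96 (0.499 times undivided).

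On the Th17 list 5 of 35 regions (14.3%) were 2-fold higher in divided than undivided cells, where 5.49% of all gene-interior regions were, and none lower, with a median log2 ratio of 0.26. The largest ratio was in Stat3, which carries IL-6 and IL-23 signals, with 53 fragments in divided cells, 9 in undivided cells and 29 in polyclonal cells (chr11:100904612-100905536, log2 2.29, 1.26 to 3.49). Il1r1, the IL-1 receptor, had 2 such regions, the taller with 70, 16 and 22 (log2 1.86, 1.06 to 2.74). The deposited folds of this taller region were 7.11 in divided and 7.21 in undivided cells, so by that measure it was not higher. At the Stat3 region they were 13.4 and 5.53. Batf, an AP-1 family factor also on the activation list, had 38, 15 and 21 (log2 1.07), with deposited folds of 8.81 in divided and 8.67 in undivided cells. Rora, with 13 of the 35 regions, had none past 2-fold. With background scaling the median of the list lies below 0.

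On the activation list, Nfkb1, an NF-κB subunit, had a region with 45 fragments in divided cells, 8 in undivided cells and 14 in polyclonal cells (chr3:135621143-135621944, 4.66-fold over undivided), and Cd44, the adhesion receptor of experienced T cells, 1 with 43, 16 and 41 (log2 1.16). At Cd44 divided and polyclonal cells were close and undivided cells low. Over the list 3 of 51 regions (5.88%, near the 5.49% of all gene-interior regions) were higher and none lower, and the median was 0.17, below 0 with background scaling. The cell cycle list had 4 of 18 regions (22.2%) higher, all in Cdk6, a kinase that drives cells out of G1. Cdk6 held 8 regions, and chr5:3383390-3384224 had 77, 14 and 20 fragments (log2 2.19, 1.36 to 3.13). The tallest, chr5:3355616-3356752, had 84, 29 and 38 (log2 1.26, 0.64 to 1.93). The deposited folds, divided then undivided, were 14.0 and 8.30 at chr5:3383390-3384224 but 11.7 and 11.8 at the tallest. Not all Cdk6 regions were higher, since 3 of the 8 had log2 ratios from −0.48 to −0.18, none of them past 2-fold. The region at −0.18 had 17 fragments in divided and 16 in undivided cells (−1.26 to 0.90). Ccnd3, which encodes cyclin D3, had 8 regions and none past 2-fold (−0.24 to 0.48). Among chromatin regulators, 5 of 87 regions (5.75%) were higher and 4 lower, near the 5.49% and 4.52% of all gene-interior regions. Hdac4, whose internal start was level, had one of the lower regions, with 21, 75 and 50 fragments (chr1:92130111-92130871, log2 −2.11, −2.88 to −1.39). Kmt2a, a histone H3 lysine 4 methyltransferase, had 2 higher regions, with 66, 19 and 19 (log2 1.53) and with 62, 19 and 20 (log2 1.44). On the Th2 and Tfh lists no region was past 2-fold, and the 23 Th1 regions included 1 lower region, in Stat4.

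Over 8 lists of markers of other cell types, 14 of 64 genes (21.9%) held 34 regions, where 24.9% of all protein-coding genes held one. Of the 34 none was 2-fold higher in divided than undivided cells and 4 were lower, where 5.49% and 4.52% of all gene-interior regions were. The lists are small, so these counts say little. The B cell list had 6 in 2 of 10 genes, with median pileups of 21.0 in divided cells, 23.5 in undivided cells and 21.0 in polyclonal cells. The myeloid list had 5 in 3 of 10 genes, the dendritic cell list 9 in 3 of 9 (3.14 per 100 kb, where all genes had 1.15) and the CD8 T cell list 3 in 1 of 6. That 1 gene was Runx3, which is also on the lineage regulator and Th1 lists. A peak at a gene end was called for 4 of 10 B cell genes in divided cells, 1 in undivided cells and 2 in polyclonal cells, against 24, 24 and 23 of 24 T cell identity genes. Myeloid gene ends were open in 5, 6 and 6 of 10 genes, and dendritic cell ones in 5, 3 and 4 of 9. CD8 T cell gene ends were open in 4 of 6 genes in each library, and erythroid ones in 3 of 5. For NK and innate lymphoid genes they were open in 3, 4 and 4 of 8. For epithelial genes this was 1, 2 and 2 of 7, and for stromal and endothelial genes 1, 1 and 3 of 9. The part of other cells in the differences above was not tested.

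In some genes most regions lay on 1 side. A rule added after the values were seen took genes with at least 5 regions by their median divided-over-undivided ratio. Adam19, a membrane metalloprotease, was highest with a median of 1.40. Its 5 regions had 50, 64, 70, 34 and 33 fragments in divided cells, 24, 20, 22, 12 and 7 in undivided cells, and 38, 28, 23, 16 and 12 in polyclonal cells. All 5 were higher in divided cells, 4 of them at least 2-fold. No unscaled pileup of undivided cells reached the lowest divided one. Unscaled pileups ran higher in the divided library as a whole, by 1.206 (shared median) or 1.496 (background). Cdk6 (median 0.95), Lpcat1 (0.94), Abcc4 (0.92) and Vps13d (0.90) followed. Atxn1, a transcriptional repressor, held 12 regions, 4 of them 2-fold higher in divided cells, with a median of 0.72.

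Zfp800, a zinc finger gene, was lowest with a median of −1.27. Its 5 regions had 107, 20, 20, 71 and 8 fragments in divided cells, 89, 33, 65, 142 and 23 in undivided cells, and 88, 32, 60, 120 and 30 in polyclonal cells. The first was level and 3 of the others were at least 2-fold lower in divided cells, also against polyclonal cells. Baz2b, a bromodomain gene, had 6 regions with a median of −1.14, from −1.74 to −0.38, and 4 were 2-fold lower. Lpcat3 (median −1.09), Efcab11 (−0.96) and Myo5c (−0.89) followed. Lpcat1 and Lpcat3, which encode enzymes that remodel membrane phospholipids, thus stood at opposite ends. With background scaling all these medians keep their sign.

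**Figure D5:**
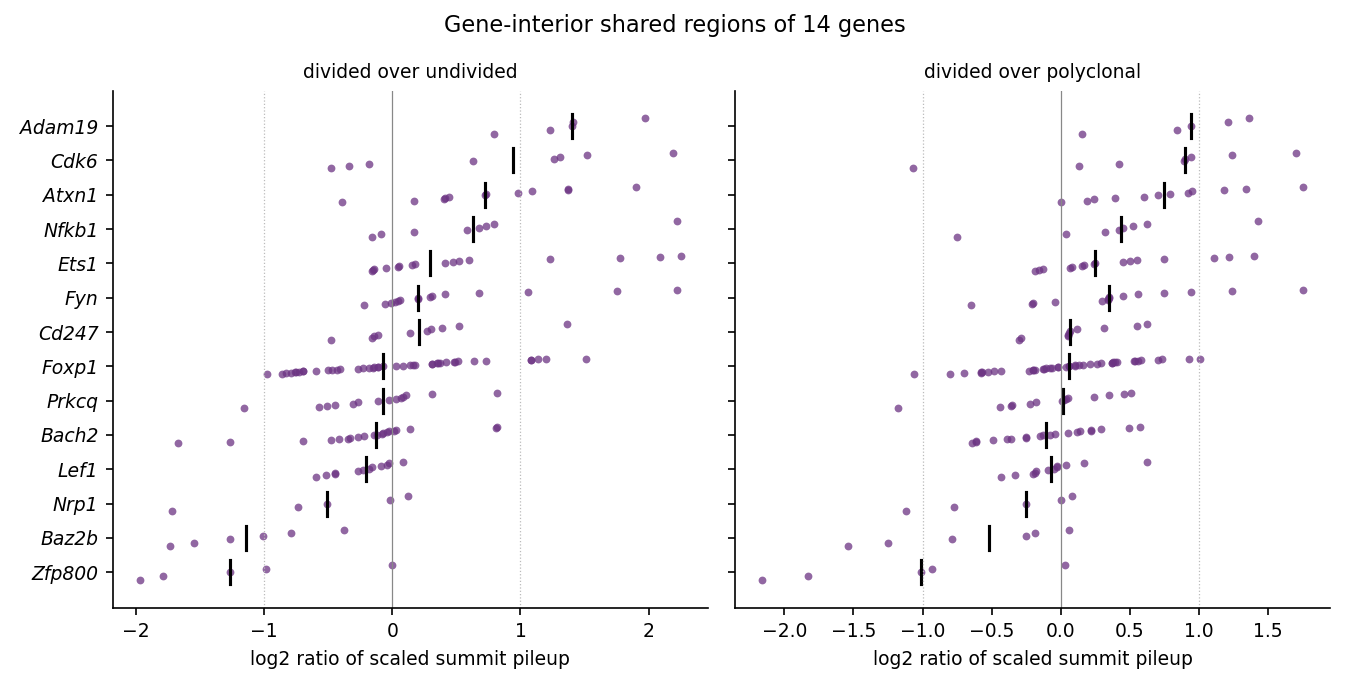
Log2 ratio of scaled summit pileup (x) for every gene-interior shared region of 14 genes chosen after their values were seen (rows), divided over undivided (left) and divided over polyclonal (right); black bars are medians and dotted lines mark 2-fold. All 5 Adam19 regions lie above 0 in divided over undivided, and Foxp1 spreads from −0.98 to 1.51 around a median of −0.07.

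Gene-interior regions were somewhat denser in the first parts of genes than in the last. For 9198 regions in genes of known strand, 21.4% (20.5 to 22.2), 23.3%, 20.5%, 18.9% and 15.9% (15.2 to 16.7) lay in 5 equal parts of the gene, in order from its first to its last base. Per Mb of interior in each part, over genes that held a region, there were 29.9, 30.5, 26.9, 24.8 and 22.3 regions. Over the interior of all protein-coding genes, with or without a region, there were 12.4 per Mb. Height differed in the same direction between the ends, with median pileups of 46, 37 and 37 fragments in divided, undivided and polyclonal cells in the part next to the first base and of 32, 26 and 26 in the last. The median divided-over-undivided ratio stayed between −0.03 and 0.02 across the parts. The median distance from the first base was 29.4 kb, and 18.3% of regions lay over 100 kb from it.

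Summits of the same region lay close together in the 3 fractions. Between divided and undivided cells the median distance was 28 bp and 64.8% of summits lay within 50 bp (63.9 to 65.6). Between divided and polyclonal cells 64.2% did, and between undivided and polyclonal cells 65.4%. Near gene ends the divided-to-undivided share was 63.9% and between genes 64.9%, close to the share inside genes. Inside genes, the median spread of the 3 summits was 77 bp below 20 fragments and 32 bp from 80 upwards.

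Close to the limits of the rule, 256 regions lay 1002 to 1199 bp from the nearest gene end, with median pileups of 50, 39 and 42 in divided, undivided and polyclonal cells. Just outside, 245 shared regions in genes lay 801 to 1000 bp from an end, with 57, 47 and 46. In 62 gene-interior regions (0.544%) the lowest of the 3 −log10 q-values was under 2, and the lowest of all was 1.31. Inside genes 4110 regions were called in 2 libraries only and 7944 in 1 only.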

How the data were processed

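ATAC-seq peak lists of 3 fractions, 1 library each, were analysed. The tools in the submitters' processing notes are MACS2 2.1.0, Bowtie2 2.3.2, Trimmomatic 0.33, cutadapt 1.12 and bcl2fastq 2.17, with SAMtools and Picard, and the build is mm10. Per the labels, cells of 2 mice were pooled in duplicate, but not given in the sources used here are how the duplicates entered each list and whether reads were shifted for the transposase. The deposited lists held 47963 (divided), 41876 (undivided) and 44426 (polyclonal) rows. The deposited score repeats the −log10 q-value as an integer. The deposited fold is a linear ratio over local background, and the deposited −log10 p-value and q-value are the peak caller's. The deposited summit offset gave positions.

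Total reads per library: not given in the sources used here. Summit pileup and local background were recovered from fold = (pileup + 1)/(background + 1) and the Poisson −log10 p-value, for 100% of peaks, within 0.001 of a whole number in at least 99.99%. The recovery was tested on simulated data. Local background went with pileup over the peaks of each library (Spearman's rho 0.848 to 0.865). Whether pileup or the deposited fold better gives differences between libraries was not tested. By fold, 193 gene-interior regions were 2-fold higher in divided over undivided and 112 lower, where pileup gave 625 and 515. Genes and starts came from RefSeq tables of GRCm38.p6, with strand for 16456 of 20661 genes. A search of region sequence was planned but no genome was used here, so promoter windows were searched instead, a choice made after seeing the files. Wilson intervals for shares and exact binomial intervals for ratios cover counting error only. Python 3.11.15, pandas 2.3.3, numpy 2.4.6, SciPy 1.17.1 and matplotlib 3.10.9 were used.

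Named genes were the 10 with most regions, the 10 of highest density among those with 5 or more, the 5 tallest regions, the 8 highest and 8 lowest ratios per comparison with 20 fragments or more in the higher library, the 3 genes of each of 14 T cell lists with most regions and the 5 longest runs, except where said. Members, lists and the rule were chosen with earlier results of these data known. Other alternatives were thresholds, margins, scaling and run gaps.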

Additional observations from a re-analysis of the deposited data

How the results depend on the processing

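With 1 library per fraction no replicate could be left out. No paired analysis was possible because each fraction has 1 library and no test was run. Requiring −log10 q of 10 or more left 7321 regions, 37 genes with 10 or more, 25 in Foxp1, and 71.5%, 71.2% and 72.2% of summits within 50 bp (divided to undivided, divided to polyclonal, undivided to polyclonal). Runs at 5 kb numbered 262. Counts past the fold, higher then lower, moved as follows. Divided over undivided gave 322 and 1145 with background scaling, 193 and 112 with the deposited fold, 1679 and 1483 at 1.5-fold, 165 and 95 at 3-fold, 411 higher at −log10 q of 5, 190 and 174 at 10, and 270 lower at 30 fragments. Divided over polyclonal gave 161 and 666, 86 and 79, 1428 and 1173, 38 and 53, 249 higher, 112 and 88, and 158 lower under the same settings. Undivided over polyclonal gave 60 and 75 with the deposited fold, 906 and 954 at 1.5-fold, 13 and 30 at 3-fold, 100 and 143 at −log10 q of 5, 29 and 43 at 10, and 52 and 86 at 30 fragments. A stricter fold gives lower counts by construction. The cause of the other moves was not tested. Of the alternatives, 44 values stayed within the limits set, among them those without regions of local background over 50, added after seeing the data. Low pileups limit small ratios.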
